A study of Mus musculus with 52 samples.

Results

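Bulk RNA-seq of mouse pancreatic tumors was examined for 9 CC chemokine genes and 1 receptor gene whose products bring monocytes, macrophages and eosinophils into tissue. They were chosen by name with earlier results of these data known, by a rule that uses no measured value, and are Ccl2, Ccl7, Ccl12, Ccl8, Ccl11, Ccl3, Ccl4, Ccl6, Ccl9 and Ccr2. The 10 genes are among 27525 in the table of 32 libraries, and each of them passed the filter on low counts in every comparison. The tumors were subcutaneous KPC tumors, grown from 1 cell line of KxPxCx mouse pancreatic cancer, in syngeneic male C57BL/6NHsd mice aged 8 to 10 weeks. Treatment began when tumors measured about 100 mm3, 10 days after the cells were injected. The untreated group held 8 tumors. The ADU-S100 group of 8 received 2 µg of ADU-S100, a cGAMP analog that activates STING, once into the tumor on day 0. The anti-LTβR group of 8 received the agonistic anti-LTβR antibody 4H8 into the peritoneum in 4 doses of 100 µg, the last on day 10. The combination group of 8 received both agents. Every tumor was collected on day 14 and sequenced on its own, so the data ask how these genes stood on the day of resection. All tumors came from the same cell line, and the p-values measure the spread between tumors. The labels used here do not name the mouse of each tumor, so whether any tumors shared a mouse is not known. The study's text describes them in one place as a single experiment and in another as a pooling of independent experiments, and the labels used here mark no such split. The labels call the untreated group a control and do not say whether it was given a vehicle or an isotype antibody.

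CC chemokines are small secreted proteins that cells follow along a gradient through receptors on their surface. Classical monocytes carry Ccr2, leave the bone marrow and enter inflamed tissue or tumors in answer to its ligands, where many turn into macrophages. Eosinophils carry Ccr3 and follow the eotaxins. The members described here were ordered by that scheme: the Ccr2 ligands Ccl2, Ccl7 and Ccl12 with the receptor, then Ccl8 and the eotaxin Ccl11, then Ccl3, which signals through Ccr1 among others, with Ccl4, and last the Ccr1 ligands Ccl6 and Ccl9.

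The 9 chemokine genes lie on chromosome 11 in 2 groups, given here in mm39. Ccl2 (chr11:81926397-81928279), Ccl7, Ccl11, Ccl12 and Ccl8 (chr11:82006011-82007625) follow one another on the plus strand. After a gap of 1456 kb come Ccl9 (chr11:83463745-83469462), Ccl6, Ccl3 and Ccl4 (chr11:83553410-83555509), of which Ccl4 alone is on the plus strand. Ccr2 is on chromosome 9 (chr9:123901987-123913594). Of all stretches of 50 bases in their annotated transcripts none was shared with another gene for Ccl2, Ccl7, Ccl12, Ccl8, Ccl11, Ccl3, Ccl4 and Ccl6. For Ccl9 1.97% of such stretches and for Ccr2 1.91% occurred in other genes, and in neither case was the other gene a member. Ccl6 lies wholly within the span of the antisense gene E230016K23Rik, whose level was between 0 and 17.1 normalized counts in the 32 tumors. Ccl3 overlaps a lncRNA without a gene name on the opposite strand over 853 bases, and whether counting used the strand was not given in the sources used here.

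Values below are normalized counts, that is the reads of a gene after division of each library by its own size factor. "Rose" and "fell" mean an adjusted p under 0.05 by limma on log2(normalized count + 1), and "differentially expressed" asks in addition for at least 2-fold. Log2 differences are on that scale. Summed marker levels add normalized counts, so the most abundant genes of a list weigh most. In bulk RNA, fewer cells of a type and less RNA per cell cannot be told apart. One untreated tumor, number 3, stood apart in Ccl8, Ccl6, Ccl9 and Ccr2, and tests and correlations that it moved by over 1.5 times, or across the threshold, are given with and without it. It also held the highest summed level of macrophage markers among untreated tumors (54907 against a median of 35904), of monocyte markers (7394), of eosinophil markers (707), of T and NK cell markers (1318), of B cell markers (246 against a median of 108) and of endothelial markers (1514 against 1183). Their part in its chemokine levels was not tested.

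Between genes, levels were compared per kilobase of exon. Ccl8 ranked highest in every group, with 2806 ± 1865 normalized counts per kilobase in untreated and 4391 ± 1068 in the combination group (SD, n = 8). Ccr2 ranked lowest in every group, with 85.4 ± 27.9 in untreated and 131 ± 12.7 in combination tumors per kilobase. Between them in untreated tumors came Ccl6 (837 ± 747), Ccl12 (769 ± 168), Ccl7 (564 ± 136), Ccl2 (434 ± 84.6), Ccl9 (228 ± 184), Ccl11 (199 ± 85.1), Ccl4 (174 ± 52.1) and Ccl3 (162 ± 51.7). Each gene overlapped its neighbor in this order. Without untreated tumor 3 the untreated mean fell from 1502 to 1043 normalized counts in Ccl6 and from 695 to 502 in Ccl9. The places of these genes in the order thus depend on that tumor. In combination tumors the lowest Ccl8 level, 2759 per kilobase, was above the highest Ccl6 level, 1528, and the remaining neighbors overlapped. Ccl11 ranked 7 of 10 per kilobase in untreated tumors, 9 in ADU-S100 tumors, 8 in anti-LTβR tumors and 5 with the combination.

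**Figure D1:**
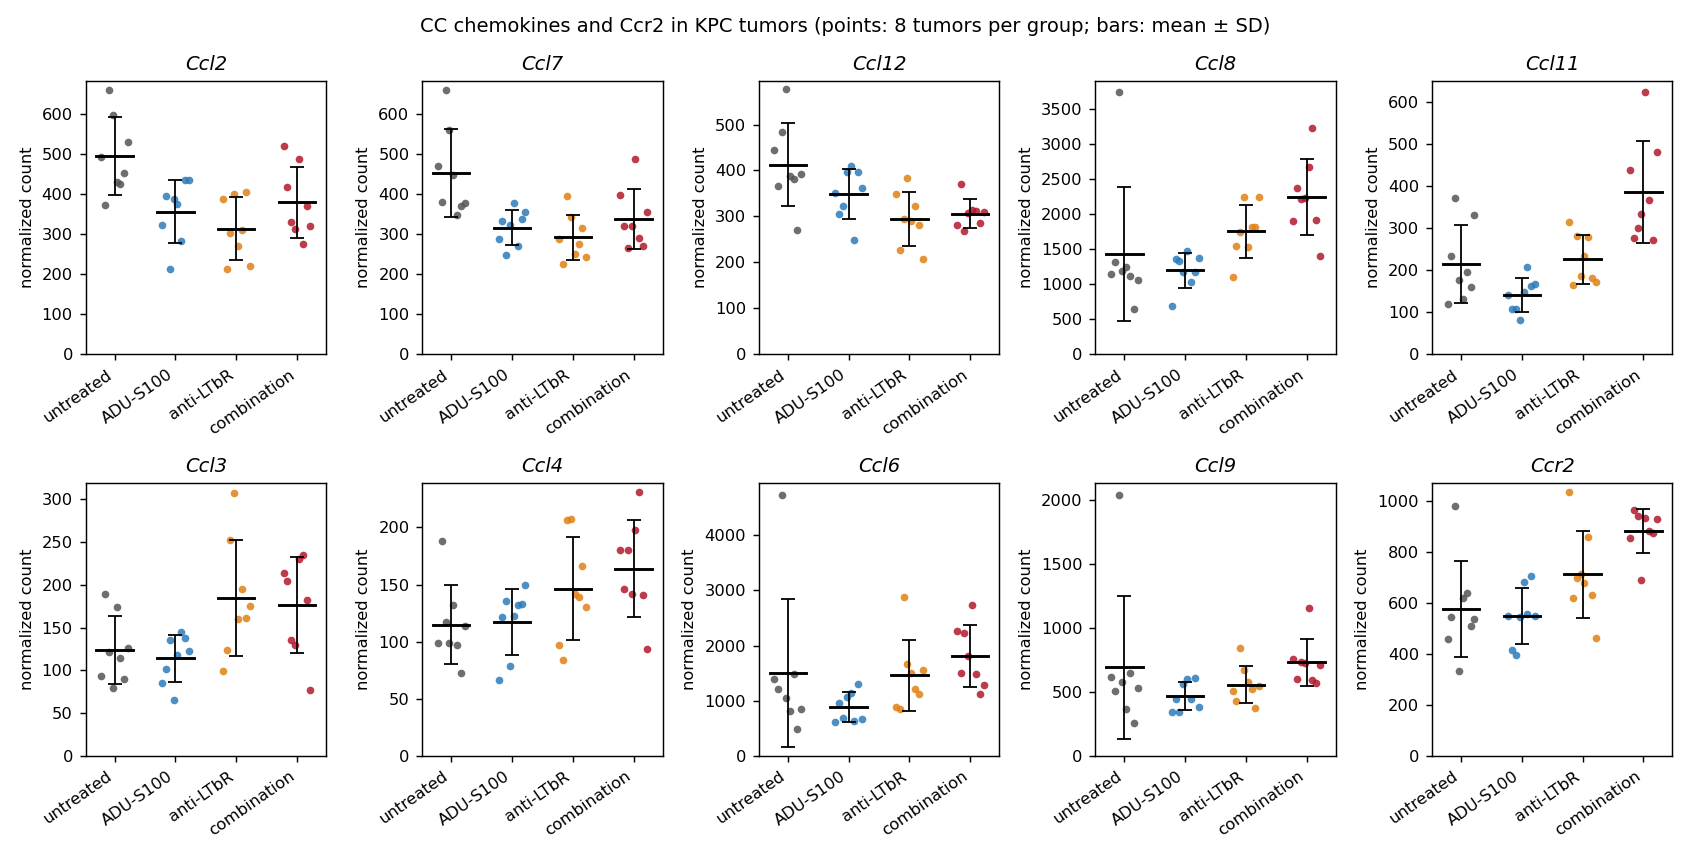
Normalized counts of the 10 genes in each of 8 tumors per group, with the mean ± SD as bars. The untreated means of Ccl2, Ccl7 and Ccl12 sit above the treated means, the combination mean is the highest of the 4 group means in Ccl4, Ccl6, Ccl8, Ccl9, Ccl11 and Ccr2, and 1 untreated tumor stands far above the rest in Ccl8 (3739), Ccl6 (4719) and Ccl9 (2041).

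The 3 ligands of Ccr2 fell with anti-LTβR and with the combination, by 0.39 to 0.67 on the log2 scale. Ccl2, the main attractant of classical monocytes, had a lowest, median and highest value of 371, 472 and 659 normalized counts in untreated tumors. In ADU-S100 tumors these values were 212, 381 and 435, in anti-LTβR tumors 212, 305 and 406, and in combination tumors 276, 350 and 520. The groups overlapped, and every untreated tumor exceeded 5 of 8 anti-LTβR and 5 of 8 combination tumors. Untreated tumors averaged 494 ± 96.3, anti-LTβR tumors 313 ± 78.1 and combination tumors 379 ± 88.0 (SD, n = 8). Ccl2 fell by 0.67 on the log2 scale with anti-LTβR (SE 0.15, limma adjusted p = 0.010) and by 0.39 with the combination (SE 0.14, limma adjusted p = 0.033). With ADU-S100 the log2 difference was -0.49 (95% interval -0.80 to -0.17), which did not pass the adjusted threshold (limma adjusted p = 0.28).

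Ccl7, which draws monocytes through Ccr2 and acts on eosinophils as well, fell in the same comparisons as Ccl2. It ran from 348 over a median of 414 to 660 normalized counts in untreated tumors. The corresponding values were 247, 327 and 378 in ADU-S100 tumors, 224, 282 and 394 in anti-LTβR tumors, and 266, 320 and 488 in combination tumors. Of the 8 anti-LTβR tumors 7 were below every untreated tumor, of the ADU-S100 tumors 6 and of the combination tumors 5. Ccl7 fell by 0.62 with anti-LTβR (SE 0.14, limma adjusted p = 0.010) and by 0.41 with the combination (SE 0.15, limma adjusted p = 0.031). With ADU-S100 it differed by -0.49 (95% interval -0.76 to -0.22, limma adjusted p = 0.28).

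Ccl12, the mouse chemokine also called MCP-5 and a ligand of Ccr2, varied least between tumors of the combination group (306 ± 30.9, SD, n = 8). Its lowest, median and highest values were 270, 391 and 576 without treatment, 248, 356 and 410 with ADU-S100, 209, 293 and 384 with anti-LTβR alone, and 268, 309 and 370 with the combination. Most treated tumors lay inside the untreated range, with 2 of 8 anti-LTβR, 1 of 8 ADU-S100 and 1 of 8 combination tumors below it. Ccl12 fell by 0.48 with anti-LTβR (SE 0.14, limma adjusted p = 0.034) and by 0.41 with the combination (SE 0.12, limma adjusted p = 0.010), and the difference with ADU-S100 was -0.23 (95% interval -0.51 to 0.05, limma adjusted p = 0.40). Combination against ADU-S100 tumors gave -0.18 (95% interval -0.38 to 0.02, limma adjusted p = 0.14), which passed without ADU-S100 tumor 6 (0.017) and among libraries above 14000000 reads (-0.26, limma adjusted p = 0.039).

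Some of these calls sat close to the threshold. In combination against untreated tumors, the Ccl2 call was lost when any of untreated tumors 1, 3, 4 and 8 or combination tumors 3, 4, 6 and 8 was left out (adjusted p from 0.052 to 0.068). The Ccl7 call was lost without untreated tumor 1, 3 or 4 or combination tumor 3, 6 or 7 (0.054 to 0.064). The Ccl12 call held in all 16 such fits there, while in anti-LTβR against untreated tumors it was lost without untreated tumor 1, 3 or 4 or anti-LTβR tumor 2, 5, 7 or 8 (0.052 to 0.066). In that comparison the Ccl2 and Ccl7 calls held in all 16 fits, with a highest adjusted p of 0.021 and 0.022. Among libraries above 14000000 reads the anti-LTβR call of Ccl12 was lost (limma adjusted p = 0.11).

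Most mast cell and tumor epithelium markers fell in the same comparisons as these 3 genes. Of 5 mast cell markers tested, 4 fell with anti-LTβR and 4 with the combination, and Kit, also found on other cells, rose with the combination. The summed mast cell level ran from 578 to 1361 in untreated tumors, from 204 to 1385 with ADU-S100, from 168 to 329 with anti-LTβR alone and from 244 to 540 with the combination. Of 5 tumor epithelium markers, 3 fell with anti-LTβR and 4 with the combination, and their sum ran from 15439 to 28845 in untreated, from 13058 to 16058 in anti-LTβR and from 6756 to 14124 in combination tumors. None of the markers tested in these lists was at 0 in any tumor. Around the group means the mast cell sum correlated with Ccl2 at r = 0.26, with Ccl7 at 0.29 and with Ccl12 at 0.13 over 32 tumors that share their libraries. The tumor epithelium sum did so at 0.30 with Ccl2, 0.28 with Ccl7 and 0.40 with Ccl12. Ccl2 was closer to the sum of monocyte markers without Ccr2 (0.42). Ccl7 was closer to the sum of skin keratins (0.31, and 0.48 without untreated tumor 3). The part of these cells in the lower Ccl2, Ccl7 and Ccl12 levels was not tested.

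The receptor gene rose. Ccr2, which marks classical monocytes, ran from 334 over a median of 540 to 980 in untreated tumors and from 691 over 904 to 964 in combination tumors. ADU-S100 tumors held 396, 548 and 706 and anti-LTβR tumors 464, 689 and 1035 as lowest, median and highest values. Combination tumors were tightly grouped, with 7 of 8 between 853 and 964, but untreated tumor 3 (980) was above all of them. Untreated tumors averaged 577 ± 188 and combination tumors 882 ± 86.1 (SD, n = 8). Ccr2 rose by 0.67 with the combination (SE 0.15, limma adjusted p = 0.0024), and by 0.78 when untreated tumor 3 was left out (limma adjusted p = 0.00012). It was higher by 0.70 in combination than in ADU-S100 tumors (SE 0.11, limma adjusted p = 0.00010), and 7 of 8 tumors of the first group exceeded each tumor of the second. Against untreated tumors it differed by 0.33 with anti-LTβR (95% interval -0.05 to 0.71, limma adjusted p = 0.21) and by -0.04 with ADU-S100 (95% interval -0.40 to 0.33, limma adjusted p = 0.93). These were 0.45 and 0.08 without untreated tumor 3 (limma adjusted p = 0.059 and 0.80). Combination against anti-LTβR gave 0.34 (limma adjusted p = 0.051), which passed when anti-LTβR tumor 1 (0.0092), anti-LTβR tumor 6 (0.036) or combination tumor 4 (0.029) was left out. It also passed by DESeq2 (adjusted p = 0.034) and by limma with at least 10 in every library (adjusted p = 0.047).

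Of 8 monocyte markers, Ccr2 among them, 3 rose with the combination. The other two were Ly6c2, the Ly6C antigen of inflammatory monocytes, which rose by 1.02 (limma adjusted p = 0.00070), and Plac8, which rose by 0.41 (limma adjusted p = 0.018). With anti-LTβR alone 1 of the 8 rose, Ly6c2 (0.61, limma adjusted p = 0.033), with ADU-S100 none did, and 5 were higher in combination than in ADU-S100 tumors. The 7 monocyte markers without Ccr2 summed to between 4423 and 7394 in untreated tumors, 4314 and 6072 in ADU-S100 tumors, 4757 and 6488 in anti-LTβR tumors, and 5709 and 9911 in combination tumors. No monocyte marker was at 0 in any tumor. Around the group means that sum correlated with Ccr2 at r = 0.50 over 32 tumors, and at 0.36 without untreated tumor 3. The sum of 4 B cell markers correlated with Ccr2 at 0.55 and Ptprc, the pan-leukocyte gene for CD45, at 0.48, and without that tumor at 0.48 and 0.50. Of those B cell markers 3 rose with the combination, and their sum ran from 70.7 to 246 in untreated and from 141 to 705 in combination tumors. Whether the Ccr2 level changed per monocyte, and the part of B cells and other leukocytes in it, was not tested.

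Ccl8 and Ccl12 are neighbors in the genome and differed in direction, so the 250 bases before the start of each are shown, from RefSeq on GRCm38.p6. Both are on the plus strand, Ccl12 at chr11:82101595-82101844 and Ccl8 at chr11:82114935-82115184. Capitals mark matches to TATAAA, the core of a TATA box.
Ccl12: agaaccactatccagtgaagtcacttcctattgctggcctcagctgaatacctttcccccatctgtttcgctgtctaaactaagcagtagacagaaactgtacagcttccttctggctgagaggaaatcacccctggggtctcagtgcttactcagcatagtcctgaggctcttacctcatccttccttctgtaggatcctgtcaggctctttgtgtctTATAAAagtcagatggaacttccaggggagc
Ccl8: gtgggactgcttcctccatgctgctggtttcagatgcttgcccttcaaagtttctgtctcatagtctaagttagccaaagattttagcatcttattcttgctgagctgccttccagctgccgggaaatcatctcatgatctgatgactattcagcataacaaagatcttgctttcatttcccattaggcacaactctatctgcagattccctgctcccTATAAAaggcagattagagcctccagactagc
Aligned over their whole length, 161 bases were identical in 280 alignment columns (57.5%), against 41.9 to 53.8% for the other pairs among the 6 members with a window. The match to TATAAA began 31 bases before the start in Ccl12 and 32 bases before it in Ccl8. On both strands, 12.4% of 32851 windows of that length held TATAAA. Neither window held TTCNNNGAA or TTCNNNNGAA (STAT motifs, 7.02% and 5.85% of all windows), GAAANNGAAA (the interferon-stimulated response element, 2.98%), TGANTCA (AP-1, 6.75%) or the NF-kB motif (3.90%), which says only that these letters were absent from the window. Windows for Ccl2, Ccl7, Ccl11 and Ccl4 were not used here.

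Ccl8, which in the mouse signals through Ccr8 and attracts T cells, was the most abundant member per kilobase. Its lowest, median and highest values were 649, 1173 and 3739 in untreated tumors, 693, 1255 and 1480 with ADU-S100, 1111, 1781 and 2253 with anti-LTβR alone, and 1410, 2222 and 3227 with the combination. The highest untreated value was tumor 3, and the other 7 untreated tumors reached 1317, below each combination tumor. Ccl8 rose by 0.79 with the combination (SE 0.26, limma adjusted p = 0.020), and by 1.01 without untreated tumor 3 (SE 0.17, limma adjusted p = 0.00023). On recovered reads with that tumor included, the call was lost, with an adjusted p of 0.067 by edgeR with RLE, 0.075 by edgeR with TMM and 0.057 by DESeq2. With anti-LTβR the difference was 0.45 (95% interval -0.08 to 0.98, limma adjusted p = 0.22), and 0.67 without untreated tumor 3, which passed (limma adjusted p = 0.012). Among libraries above 14000000 reads the combination difference was 0.62 and did not pass (limma adjusted p = 0.12).

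Against ADU-S100 tumors, Ccl8 was higher by 0.90 with the combination (SE 0.16, limma adjusted p = 0.00033) and by 0.55 with anti-LTβR (SE 0.16, limma adjusted p = 0.044). In each of those comparisons 7 of 8 tumors were above every ADU-S100 tumor. The second of these calls was lost in 12 of 16 fits that left out 1 tumor, with an adjusted p of 0.056 to 0.085: those without ADU-S100 tumor 1, 2, 3, 4 or 6 or anti-LTβR tumor 2, 3, 4, 5, 6, 7 or 8. It was also lost with no filter on low counts (0.060), with all 4 groups in a joint fit (0.16) and among libraries above 14000000 reads (0.11). The combination differed from anti-LTβR by 0.34 (95% interval 0.01 to 0.68, limma adjusted p = 0.12), and this passed without combination tumor 8 (0.036). ADU-S100 differed from untreated tumors by -0.11 (95% interval -0.64 to 0.43, limma adjusted p = 0.86), and by 0.12 without untreated tumor 3 (limma adjusted p = 0.74).

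Macrophage markers moved with Ccl8. Of 8 such markers, 5 rose with the combination against untreated tumors, 3 with anti-LTβR and none with ADU-S100, and 8 were higher in combination than in ADU-S100 tumors. Their sum ran from 27088 to 54907 without treatment, 28099 to 43800 with ADU-S100, 46281 to 58573 with anti-LTβR alone and 43722 to 90468 with the combination, and none was at 0 in any tumor. Lyz2 was the largest single part of that sum, with a mean of 15310 in untreated and 37761 in combination tumors. C1qa, C1qc and Mrc1 did not pass with the combination against untreated tumors (limma adjusted p = 0.19, 0.052 and 0.44). Around the group means the macrophage sum correlated with Ccl8 at r = 0.73 over 32 tumors, and the sum of 6 T and NK cell markers did so at 0.74. The share of these cells in the Ccl8 level was not tested.

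Ccl11, eotaxin-1, which calls eosinophils through Ccr3 and is made largely by fibroblasts and other stromal cells, showed the largest log2 difference among the members, in combination against ADU-S100. It had a lowest, median and highest value of 119, 187 and 372 in untreated tumors and of 82.7, 144 and 209 in ADU-S100 tumors. In anti-LTβR tumors these were 165, 210 and 314, and in combination tumors 271, 350 and 623. Combination and ADU-S100 tumors did not overlap, whereas only 3 of 8 combination tumors exceeded the highest untreated one. Untreated tumors averaged 215 ± 92.1, ADU-S100 tumors 141 ± 40.6, anti-LTβR tumors 227 ± 58.5 and combination tumors 387 ± 122 (SD, n = 8). Ccl11 rose by 0.89 with the combination against untreated tumors (SE 0.24, limma adjusted p = 0.0061), and the call held in all 16 fits that left out 1 tumor, with a highest adjusted p of 0.014. It was higher by 1.45 in combination than in ADU-S100 tumors (SE 0.20, limma adjusted p = 4.0e-05), a mean 2.75 times as high. Against anti-LTβR tumors the combination was higher by 0.75 (SE 0.18, limma adjusted p = 0.0078), a call lost among libraries above 14000000 reads (0.59, limma adjusted p = 0.082).

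Single agents differed less from untreated tumors in Ccl11. With anti-LTβR the difference was 0.14 (95% interval -0.34 to 0.61, limma adjusted p = 0.69). It ran from 0.033 to 0.27 in fits that left out 1 tumor, and was 0.27 without untreated tumor 3. With ADU-S100 the difference was -0.56 (95% interval -1.06 to -0.06, limma adjusted p = 0.32). Anti-LTβR tumors were higher than ADU-S100 tumors by 0.70 (SE 0.19, limma adjusted p = 0.036), a call lost in 10 of 16 fits that left out 1 tumor (adjusted p from 0.051 to 0.076), namely those without ADU-S100 tumor 1, 2, 3, 4 or 5 or anti-LTβR tumor 1, 3, 4, 5 or 6. With all 4 groups in a joint fit it was lost as well (0.074).

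Stromal markers moved with Ccl11. All 5 fibroblast and 4 endothelial markers rose with the combination against untreated tumors, and none of the fibroblast markers passed with either single agent, while 1 endothelial marker, Cdh5, rose with anti-LTβR. The fibroblast sum was 58683 to 93933 without treatment, 39746 to 114072 with ADU-S100, 46237 to 98968 with anti-LTβR alone and 100606 to 372656 with the combination. Its largest parts were Col1a1 (mean 39294 in untreated and 119846 in combination tumors) and Col1a2 (25546 and 85106). Endothelial markers summed to 1052 to 1514 in untreated and 1776 to 2535 in combination tumors. No marker of either list was at 0 in any tumor. Around the group means Ccl11 correlated with the fibroblast sum at r = 0.62 and with the endothelial sum at r = 0.64 over 32 tumors. What these cells contributed to the Ccl11 level was not tested.

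Eosinophil markers were low. Of 8 such markers, 7 were tested and 1 rose with the combination against untreated tumors, Ear2, an eosinophil-associated ribonuclease that macrophages can also make (log2 difference 1.44, limma adjusted p = 0.0012). Epx, eosinophil peroxidase, was at 26.3 ± 13.6 in untreated and 55.3 ± 54.7 in combination tumors and did not pass (limma adjusted p = 0.26). The summed list ran from 165 to 707 without treatment, 215 to 472 with ADU-S100, 191 to 542 with anti-LTβR alone and 363 to 1379 with the combination. Combination tumors 7 (1379) and 8 (1231) stood apart there, with the other 6 between 363 and 575. The same tumors held neutrophil marker sums of 19790 and 16279, against at most 8051 in the other 6, and Ccl11 levels of 271 and 482, the lowest and the second highest of their group. Il5ra, the receptor subunit for interleukin 5, failed the filter and was at 0 in some untreated and ADU-S100 tumors. The part of eosinophils in the Ccl11 level was not tested.

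Ccl3 and Ccl4, chemokines of activated macrophages, T cells and NK cells, lie 13.2 kb apart. Ccl3 ran from 79.3 over a median of 118 to 189 in untreated tumors, from 65.8 over 120 to 145 with ADU-S100, from 99.2 over 169 to 307 with anti-LTβR alone and from 77.6 over 194 to 235 with the combination. Ccl4 had 73.0, 106 and 188 without treatment, 66.1, 127 and 149 with ADU-S100, 84.2, 140 and 207 with anti-LTβR alone, and 93.4, 163 and 231 with the combination. All 4 groups overlapped in both genes. Combination tumor 8 was the lowest of its group in Ccl3 and in Ccl4.

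Ccl4 rose by 0.51 with the combination against untreated tumors (SE 0.19, limma adjusted p = 0.035). That call was lost in 8 of 16 fits that left out 1 tumor (adjusted p from 0.060 to 0.072), those without untreated tumor 1, 4, 6 or 7 or combination tumor 1, 3, 5 or 6, and among libraries above 14000000 reads (0.20). Ccl3 differed by 0.49 in the same comparison (95% interval -0.0033 to 0.98, limma adjusted p = 0.0997), and passed without combination tumor 8 (0.015). Against ADU-S100 tumors the combination was higher by 0.59 in Ccl3 (limma adjusted p = 0.040) and by 0.48 in Ccl4 (limma adjusted p = 0.049). Both of these were lost in many fits that left out 1 tumor. Ccl3 lost its call without ADU-S100 tumor 1, 2, 4 or 5 or combination tumor 1, 2, 5, 6 or 7 (0.053 to 0.083), and Ccl4 without ADU-S100 tumor 1, 2, 4 or 5 or combination tumor 1, 2, 3, 4, 5, 6 or 7 (0.053 to 0.098). With no filter on low counts they stood at 0.053 and 0.064, and among libraries above 14000000 reads at 0.19 and 0.29. With all 4 groups in a joint fit Ccl4 was at 0.052. With anti-LTβR against untreated tumors the differences were 0.55 in Ccl3 (95% interval 0.08 to 1.02, limma adjusted p = 0.097) and 0.33 in Ccl4 (95% interval -0.09 to 0.76, limma adjusted p = 0.25), of which Ccl3 passed without anti-LTβR tumor 1 (0.049). Against ADU-S100 tumors anti-LTβR gave 0.65 in Ccl3 (limma adjusted p = 0.075), which likewise passed without anti-LTβR tumor 1 (0.037) and by DESeq2 (adjusted p = 0.019).

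Macrophage and T and NK cell markers moved with Ccl3 and Ccl4. Of the macrophage markers 5 of 8 and of the T and NK cell markers 5 of 6 rose with the combination against untreated tumors. The T and NK cell sum ran from 534 to 1318 without treatment, 640 to 1102 with ADU-S100, 1025 to 1512 with anti-LTβR alone and 1092 to 2044 with the combination. Around the group means Ccl4 correlated with the macrophage sum at r = 0.65 and with the T and NK cell sum at 0.63, and Ccl3 at 0.48 and 0.51, over 32 tumors. The part of these cells in the Ccl3 and Ccl4 levels was not tested.

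Ccl6 and Ccl9, macrophage and neutrophil chemokines that signal through Ccr1, are 9.25 kb apart on the minus strand. The 250 bases before each start are printed because the levels of these genes tracked each other from tumor to tumor more closely than those of any other pair of members. On GRCm38.p6 they are chr11:83593088-83593337 for Ccl6 and chr11:83578637-83578886 for Ccl9, read on the minus strand.
Ccl6: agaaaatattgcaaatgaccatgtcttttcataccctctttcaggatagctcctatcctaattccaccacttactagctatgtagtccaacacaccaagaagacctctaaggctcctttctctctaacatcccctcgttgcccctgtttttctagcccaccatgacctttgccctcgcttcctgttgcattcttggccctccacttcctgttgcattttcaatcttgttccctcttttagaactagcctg
Ccl9: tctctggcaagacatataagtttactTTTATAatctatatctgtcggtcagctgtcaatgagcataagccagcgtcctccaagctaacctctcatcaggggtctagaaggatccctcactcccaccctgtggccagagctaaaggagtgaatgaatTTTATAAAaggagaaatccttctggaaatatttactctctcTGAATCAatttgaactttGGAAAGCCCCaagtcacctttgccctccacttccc
Capitals mark motif matches, of which Ccl6 had none among those searched. In Ccl9 they are TATAAA on either strand at 224, 94 and 92 bases before the start, TGANTCA at 53 bases and the NF-kB motif at 35 bases. The matches at 94 and 92 overlap and share bases. The windows were identical in 146 of 292 alignment columns (50.0%), within the range of the other pairs.

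Ccl6 values were 482, 1130 and 4719 as lowest, median and highest in untreated tumors. They were 625, 832 and 1299 with ADU-S100, 855, 1359 and 2875 with anti-LTβR alone and 1122, 1657 and 2743 with the combination. Ccl9 had 261, 557 and 2041 in untreated tumors, 346, 445 and 611 with ADU-S100, 375, 535 and 843 with anti-LTβR alone and 572, 718 and 1155 with the combination. Tumor 3 was the highest untreated tumor in both genes, and the untreated tumors without it reached 1489 in Ccl6 and 647 in Ccl9. Of the combination tumors 6 of 8 were above every ADU-S100 tumor in Ccl6 and 5 of 8 in Ccl9.

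The combination exceeded ADU-S100 by 1.02 in Ccl6 (SE 0.20, limma adjusted p = 0.00066) and by 0.65 in Ccl9 (SE 0.15, limma adjusted p = 0.0025). Against untreated tumors neither passed, with 0.53 for Ccl6 (95% interval -0.19 to 1.25, limma adjusted p = 0.22) and 0.31 for Ccl9 (95% interval -0.32 to 0.94, limma adjusted p = 0.42). When untreated tumor 3 was left out both passed, at 0.82 for Ccl6 (limma adjusted p = 0.011) and 0.57 for Ccl9 (limma adjusted p = 0.023). The lowest values in fits that left out 1 tumor were 0.35 for Ccl6 and 0.15 for Ccl9. By DESeq2 with all tumors they were 0.28 and 0.094 (adjusted p = 0.58 and 0.85). Single agents gave 0.18 in Ccl6 and -0.09 in Ccl9 with anti-LTβR and -0.49 and -0.34 with ADU-S100, and every one of these intervals included 0. Without untreated tumor 3 they were 0.46 and 0.17 with anti-LTβR and -0.20 and -0.08 with ADU-S100, and none passed. Combination against anti-LTβR gave 0.40 in Ccl9 (limma adjusted p = 0.073), which passed without anti-LTβR tumor 3 (0.021) and by DESeq2 (adjusted p = 0.045). Anti-LTβR against ADU-S100 gave 0.67 in Ccl6 (95% interval 0.18 to 1.15, limma adjusted p = 0.089), which passed by DESeq2 (adjusted p = 0.047) and not by edgeR (0.079 with RLE, 0.080 with TMM). Around the group means the macrophage sum correlated with Ccl6 at r = 0.56 and with Ccl9 at 0.50 over 32 tumors, and at 0.42 and 0.33 without untreated tumor 3. The part of macrophages in these levels was not tested.

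**Figure D2:**
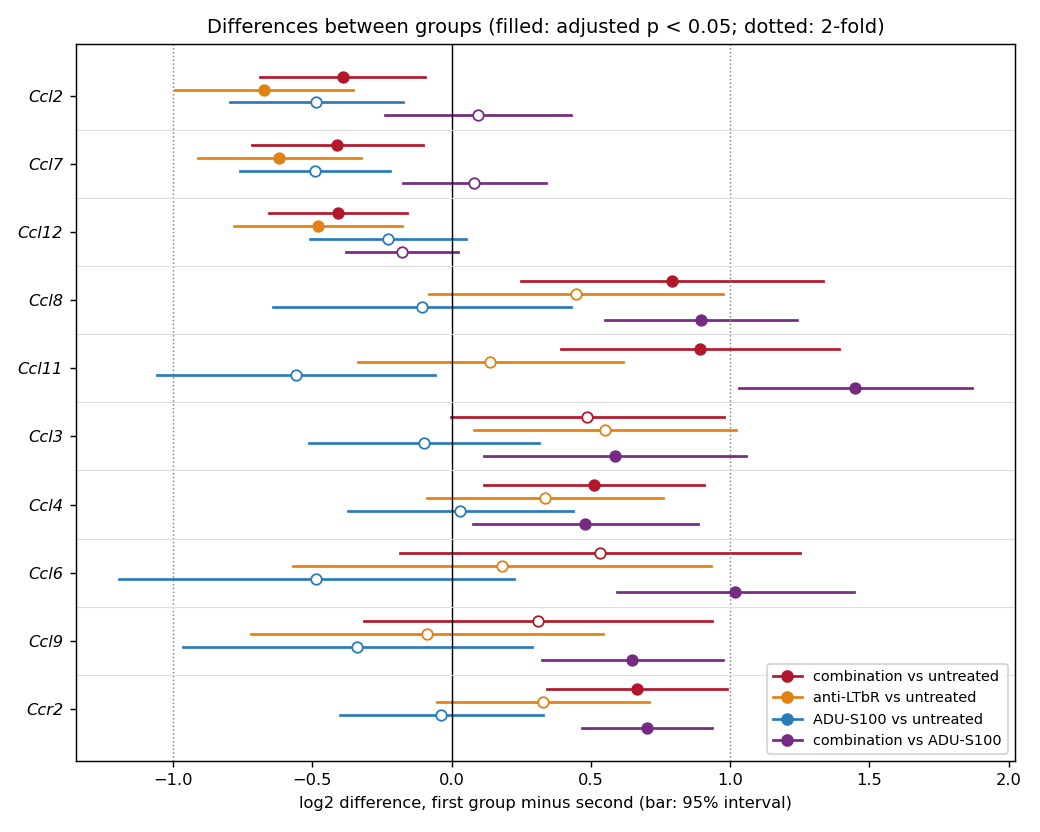
Log2 difference of each gene in 4 comparisons, first group minus second, with 95% intervals as bars. Filled points passed an adjusted p of 0.05 and dotted lines mark a 2-fold difference. The Ccr2 ligands Ccl2, Ccl7 and Ccl12 lie left of 0 against untreated tumors, and Ccl11 reaches 1.45 in combination against ADU-S100.

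Counted over the 10 genes, the combination against untreated tumors gave 4 that rose (19.6% of 16909 genes tested rose) and 3 that fell (23.6% of genes fell). None of the 10 was differentially expressed with the 2-fold threshold (6.12% of all genes). The median log2 difference was 0.50 over the members and -0.02 over all genes. Without untreated tumor 3, Ccl8 (1.01) and Ccl11 (1.02) passed the 2-fold threshold. With anti-LTβR 3 genes fell (8.10% of 16691 genes) and none rose (7.21%), and none was differentially expressed (1.04%). By every other tool run, edgeR with RLE or TMM and DESeq2, the count that rose there was also 0, and 4 of the 10 had an unadjusted p under 0.05 in either direction, as did 5586 of all 16691 genes.

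ADU-S100 against untreated tumors gave no called gene, among the 10 or among all 16613 tested by limma (0.00% in each direction). At an unadjusted p under 0.05 there were 3 members, Ccl2, Ccl7 and Ccl11, each with a negative difference, and 2408 of all genes. On recovered reads, edgeR with RLE or TMM passed 1 gene and DESeq2 28 higher and 11 lower genes, with no member among them. The combination against ADU-S100 had 7 higher (20.2% of 16811 genes were higher) and none lower (26.0%). Of those, Ccl11 and Ccl6 were differentially expressed (6.17%). For Ccl6, at 1.02, the 2-fold threshold was no longer reached without ADU-S100 tumor 1, 3, 6 or 8 or combination tumor 1, 3 or 5, and its lowest value then was 0.92. Combination against anti-LTβR had 1 higher, Ccl11 (11.3% of 16932), and none lower (15.3%), and none was differentially expressed (2.11%). Of all genes called there 42.6% were higher by limma, and 53.8% and 54.5% by edgeR with RLE and TMM. Anti-LTβR against ADU-S100 had 2 higher, Ccl8 and Ccl11 (3.38% of 16649), and none lower (3.04%), and none was differentially expressed (0.601%). These comparisons share tumors and are not independent of each other.

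Whether the combination differed from the sum of the separate effects on the log scale was tested as the interaction over all 32 tumors. It was positive and passed for 3 of 10 genes, Ccl11, Ccl7 and Ccl2 (7.33% of 17649 genes positive), and negative for none (11.0%). For Ccl11, the sum of the single-agent effects would have put the combination at 7.23 on the log2 scale, and it was measured at 8.54, an excess of 1.31 (SE 0.31, limma adjusted p = 0.0044). For Ccl7 the values were 7.68 and 8.38, a difference of 0.70 (SE 0.19, limma adjusted p = 0.011). For Ccl2 they were 7.77 and 8.54, a difference of 0.77 (SE 0.23, limma adjusted p = 0.018). For Ccl2 and Ccl7 both single-agent differences were negative, so the positive interaction means a smaller fall than their sum. The combination means of Ccl2 and Ccl7 lay between those of untreated and anti-LTβR tumors, and that of Ccl11 above all other groups.

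The 3 interactions held without untreated tumor 3, at 1.18 for Ccl11 (limma adjusted p = 0.0076), 0.62 for Ccl7 (0.018) and 0.71 for Ccl2 (0.031). In the libraries above 14000000 reads, Ccl7 (0.081) and Ccl2 (0.11) lost the call. The other 7 members had positive estimates that did not pass: Ccl6 0.84 (95% interval -0.03 to 1.71), Ccl9 0.74 (0.02 to 1.45), Ccl8 0.45 (-0.19 to 1.09), Ccr2 0.37 (-0.07 to 0.82), Ccl12 0.30 (-0.06 to 0.66), Ccl4 0.15 (-0.44 to 0.73) and Ccl3 0.04 (-0.63 to 0.70). Of these, Ccl9 passed by DESeq2 (0.996, adjusted p = 0.040). Without untreated tumor 3 the estimates were 0.56 for Ccl6, 0.48 for Ccl9 (95% interval -0.05 to 1.00), 0.23 for Ccl8 and 0.26 for Ccr2. Among all genes that passed, 39.9% were positive by limma and 51.3% by edgeR with RLE, 49.3% with TMM and 51.6% by DESeq2. All 5 fibroblast and all 4 endothelial markers also had positive interactions that passed, as did Mcpt4 and Kit among 6 mast cell markers, and their part in the results for Ccl11, Ccl2 and Ccl7 was not tested.

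**Figure D3:**
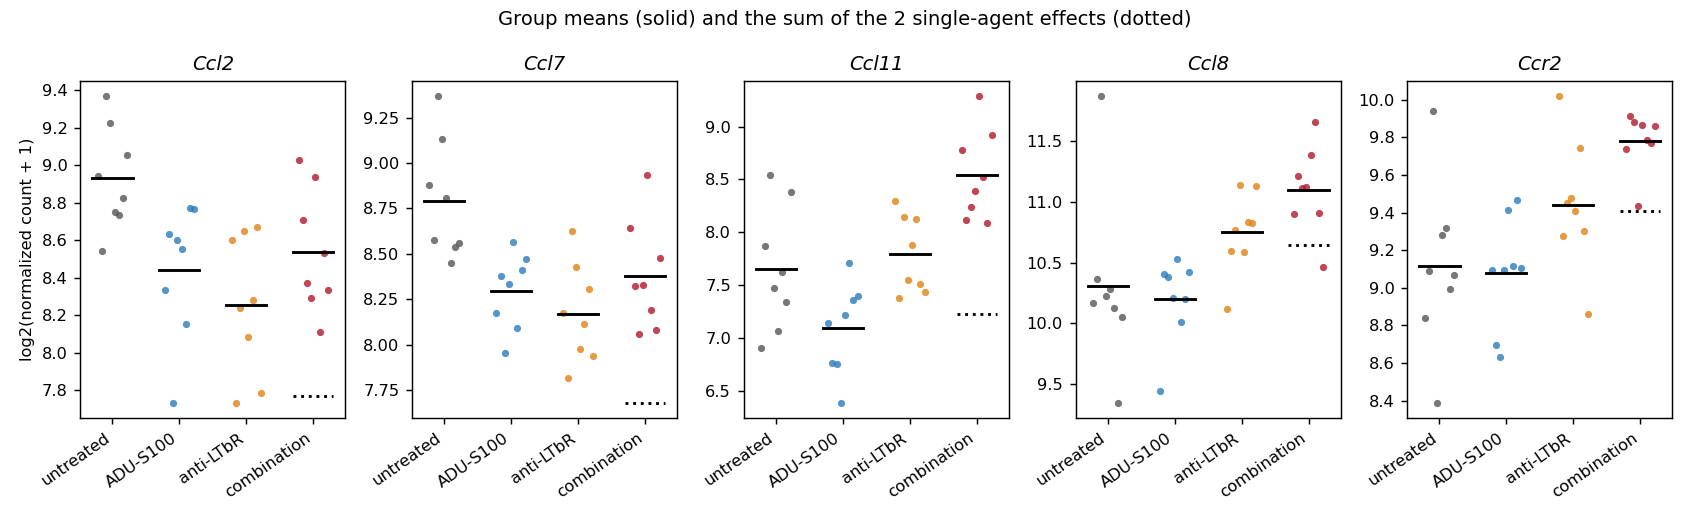
Log2(normalized count + 1) of 5 genes in each tumor, with solid lines at the group means and a dotted line where the sum of the 2 single-agent effects would put the combination. The solid combination line lies above the dotted one by 0.77 in Ccl2, 0.70 in Ccl7 and 1.31 in Ccl11, which passed the test, and by 0.45 in Ccl8 and 0.37 in Ccr2, which did not.

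The likeness of members from tumor to tumor is described by Pearson's r of log2 values after the group means were subtracted, over 32 tumors. The closest pairs were Ccl6 with Ccl9 (r = 0.93), Ccl3 with Ccl4 (0.85) and Ccl2 with Ccl7 (0.73), each of them adjacent in the genome among members. Without untreated tumor 3 these were 0.88, 0.85 and 0.71. Other neighbors had lower values, 0.37 for Ccl7 with Ccl11, 0.11 for Ccl11 with Ccl12, 0.30 for Ccl12 with Ccl8 and 0.26 for Ccl6 with Ccl3. Without untreated tumor 3 these were 0.25, 0.038, 0.22 and 0.32. Ccl8 followed Ccl6 (0.72) and Ccl9 (0.67) most closely, and those values were 0.50 and 0.36 without untreated tumor 3. Ccl8 with Ccl4 went from 0.56 to 0.73. Ccr2 was closest to Ccl11 (0.52) and had 0.37 with Ccl2, 0.25 with Ccl7 and 0.29 with Ccl12, its ligands. Those values were 0.40, 0.28, 0.046 and 0.23 without untreated tumor 3. Points share libraries and tumor composition.

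**Figure D4:**
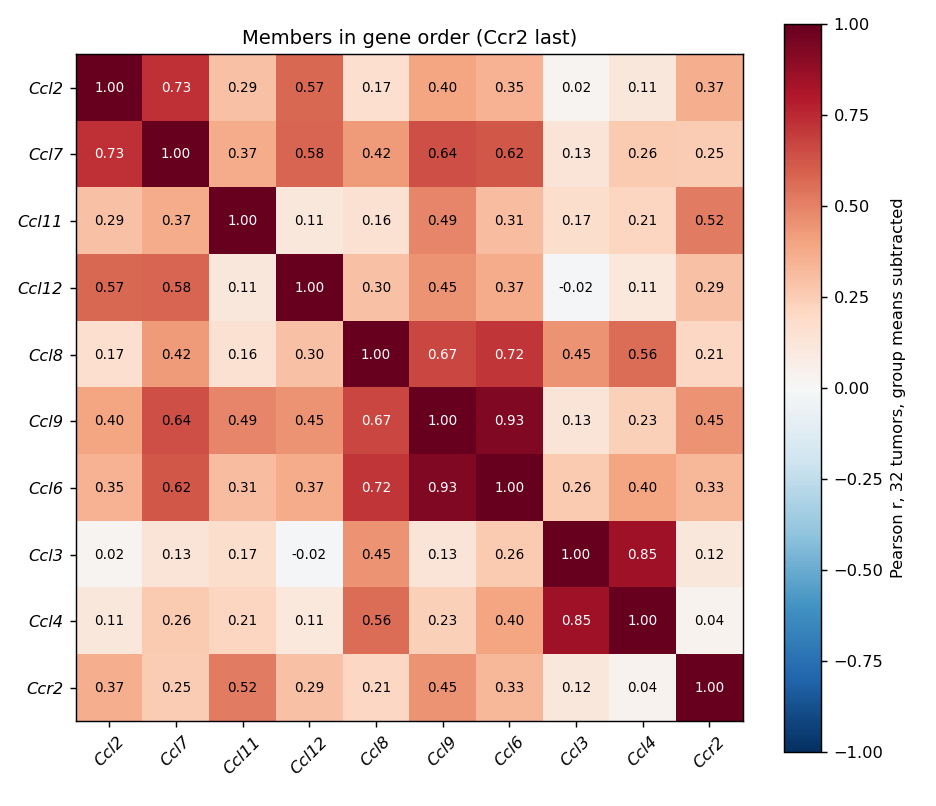
Pearson's r between members over 32 tumors after group means were subtracted, with chemokines in the order of their genes and Ccr2 last. Dark squares next to the diagonal mark Ccl2 with Ccl7 (0.73), Ccl9 with Ccl6 (0.93) and Ccl3 with Ccl4 (0.85).

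Among the 17648 other genes that passed the filter, the 2 with the most similar pattern over the 32 tumors, group differences included, were named for each member. Ccl2 was most like Ccl7 (r = 0.84) and Osm, which encodes oncostatin M (0.80), and Ccl7 most like Ccl2 and Edn1, endothelin 1 (0.78). Ccl12 went with Mbd3 (0.80) and the ribosomal pseudogene Rplp2-ps1 (0.79). Ccl8 went with F10, coagulation factor X (0.89), and Cpq, a carboxypeptidase (0.88). Ccl11 went with Mcoln2, a lysosomal channel (0.92), and Emb, embigin (0.90). Ccl3 and Ccl4 were each most like the other (0.86), followed by Ifng, interferon gamma (0.82 and 0.81). Ccl6 was most like F7, coagulation factor VII (0.93), and Ccl9 (0.92), and Ccl9 was most like Ccl6 and the macrophage mannose receptor Mrc1 (0.91). Ccr2 went with the glucose transporter gene Slc2a6 (0.87) and the protease inhibitor gene Serpina3n (0.86).

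The other CC ligands and receptors, a list of 15 genes, stood as follows. In combination against untreated tumors 13 were tested, 5 rose and 1 fell, with a median log2 difference of 0.35. Ccl5, a T cell and monocyte attractant, rose by 1.80 (limma adjusted p = 0.00051). Its mean was 634 ± 304 without treatment, 908 ± 444 with ADU-S100, 1148 ± 245 with anti-LTβR alone and 2302 ± 1105 with the combination. Ackr2, a decoy receptor that takes up inflammatory CC chemokines, rose by 1.71 (limma adjusted p = 2.9e-05), from 40.7 ± 13.1 to 134 ± 31.2. Ackr1, the atypical receptor of venules and red cells, rose by 0.89 (limma adjusted p = 0.00061). Ccr8, the receptor for mouse Ccl8, rose by 0.66 (limma adjusted p = 0.024), and Ccl1, its other ligand, by 0.92 (limma adjusted p = 0.043). Ccl20, the ligand of Ccr6, fell by 2.01 (limma adjusted p = 0.0043) from 19.9 ± 12.2 to 4.89 ± 4.32 normalized counts.

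The receptors Ccr1 and Ccr3 did not pass in that comparison. Ccr1, for Ccl6, Ccl9 and Ccl3, was at 1042 ± 160 in untreated and 961 ± 95.1 in combination tumors (log2 difference -0.11, limma adjusted p = 0.32). Ccr3, for Ccl11, was at 23.1 ± 16.4 and 27.2 ± 14.1 (0.35, limma adjusted p = 0.47). With anti-LTβR 2 of 13 rose, Ccl5 and Ackr2, and 1 fell, Ccl20. With ADU-S100 none of 12 passed. The interaction passed for 3 of 14, Ackr2 (1.19), Ccl22 (1.01) and Ackr1 (0.99), all positive.

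Among 12 genes that induce or mark eosinophil and type 2 responses, 8 were tested in combination against untreated tumors. Il33, an alarmin of stromal cells, rose by 0.76 (limma adjusted p = 0.0060), and Postn, periostin, a matrix protein of fibroblasts, by 1.20 (limma adjusted p = 0.00012). Csf2, which encodes GM-CSF, fell by 0.87 (limma adjusted p = 0.019) and Il4ra by 0.24 (limma adjusted p = 0.0038). The interleukin genes Il4, Il5 and Il13 did not pass the filter, with medians of at most 3.90 normalized counts in any group. With anti-LTβR, and with ADU-S100, none of 8 passed. The interaction passed for Postn (1.56) and Il33 (1.07).

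A list of 6 genes of monocyte growth and survival, Csf2 among them, was also counted. In combination against untreated tumors Csf1, the macrophage growth factor, rose by 0.31 (limma adjusted p = 0.0010) and its receptor Csf1r by 0.60 (limma adjusted p = 0.00039), while Il34, the second ligand of that receptor, fell by 0.85 (limma adjusted p = 2.2e-05). With anti-LTβR alone Csf1r rose by 0.34 (limma adjusted p = 0.017), Cx3cl1 by 0.31 (limma adjusted p = 0.026) and Cx3cr1 by 0.48 (limma adjusted p = 0.032). With ADU-S100 none of the 6 passed. The interaction passed for 2, Il34 (-0.54) and Cx3cl1 (-0.58), both negative.

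Other cell markers were counted for the same tumors. In combination against untreated tumors 5 of 6 T and NK cell markers and 3 of 4 B cell markers rose, 1 of 6 neutrophil markers rose, and Ptprc rose by 0.59. No skin keratin and no skeletal muscle marker passed, though the sum of 3 muscle markers ran from 4211 to 91771 in untreated and from 4808 to 264834 in combination tumors and correlated with Ccl8 around the group means at r = 0.62. The part of admixed muscle in the Ccl8 level was not tested. Recovered reads ran from 12762453 to 15591986 per library.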

How the data were processed

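Individual subcutaneous KPC tumors were sequenced as stranded poly(A) RNA. The study's methods name Cutadapt, HISAT2 with an Ensembl mouse genome, StringTie, DESeq2 and edgeR, and the submitters' processing notes name these tools (Cutadapt as version 1.9), STAR, Partek and mm39. Which of them made each table was not given in the sources used here. The deposited values are a signal, normalized counts per gene that the authors obtained with 1 size factor per library, for 27525 genes in 32 libraries. A larger deposited table of 52 libraries holds normalized counts whose steps gave back whole reads, 12762453 to 15591986 per library in the 32. Wholeness was checked below 500 reads with a tolerance of 0.02 reads, and 100% of such values came out whole in every library. In 12 libraries 1 read was worth within 1.5% of 1 normalized count, where 14.6 to 52.5% of those values would be whole at a step of exactly 1. Its columns and those of the first table matched best for 32 of 32 libraries. Another deposited table holds the authors' own enrichment results and was not used.

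Log2(normalized count + 1) was tested with limma 3.58.1 (R 4.3.3) on genes that passed filterByExpr with a minimum count of 10, over the 16 tumors of the groups compared, and for the interaction over all 32, with Benjamini-Hochberg adjustment over all genes tested. The threshold was an adjusted p of 0.05, and 2-fold in addition for differential expression. Alternatives were edgeR 4.0.16 (RLE, TMM) and DESeq2 1.42.0 on recovered reads, other filters, a pseudocount of 0.1, a joint fit, a replicate block, only libraries above 14000000 reads and leaving out each tumor. The interaction and correlations without untreated tumor 3 and per-gene interaction alternatives were chosen after seeing the data. Scripts were tested on simulated data. Intervals are 95%.

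The genes and lists were chosen with earlier results of these data known. Named genes are the 10 genes, up to 6 of each list, cell type markers, and the 2 genes most like each by Pearson's r. Beyond that rule Ackr1, Ccl1, Ccl22 and Il4ra were named after their values were seen. Gene positions are in mm39, exon lengths from GENCODE M21 (GRCm38) and promoters from RefSeq on GRCm38.p6. Promoters were matched for 6 of 10 genes, and protein sequences were not used here. A second experiment of 20 libraries, of which 15 have labels that contradict each other, entered no comparison. Values of 1 listed gene are not reported here.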

Additional observations from a re-analysis of the deposited data

Results flagged for a closer look

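In 8 of 40 groups of 8 tumors, 1 tumor lay farther from the others than Dixon's 95% critical value allows, where chance flags about 1 in 20 groups. Untreated tumor 3 accounts for 4 of these, with 3739 normalized counts of Ccl8, 4719 of Ccl6, 2041 of Ccl9 and 980 of Ccr2. Combination tumor 2 had the highest Ccl12 of its group (370) and combination tumor 5 the highest Ccl9 (1155). Combination tumor 4 had the lowest Ccr2 (691). Anti-LTβR tumor 3 had the highest Ccl6 of its group (2875).

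The effect of each agent differed with the presence of the other in 3 genes by the interaction test, at 0.77 for Ccl2, 0.70 for Ccl7 and 1.31 for Ccl11 on the log2 scale.

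In the second experiment, which entered no comparison, the 5 combination tumors had a median Ccl4 of 451 normalized counts in the table scaled over 52 libraries, and 5 of 5 were above each of the 8 untreated tumors of the 32 libraries (highest 191). Of the 15 tumors of that experiment whose labels contradict each other, 12 were above them as well. The Ccr2 ligands were higher there too, with medians of 624 in Ccl2, 886 in Ccl7 and 626 in Ccl12 against 482, 426 and 403 in the 8 untreated tumors, and 2, 3 and 3 of 5 tumors above every untreated one. In the 32 libraries these 3 genes were lower in combination tumors. In the other 6 members 2 (Ccl8) to 4 (Ccl9) of 5 were above every untreated tumor. Combination tumor 3 of the second experiment had 8716257 recovered reads, against 18028314 to 18789130 in the others of these 5. Among the 5 it held the highest Ccl12 (1220) and Ccl8 (9768) and the lowest Ccr2 (382). The experiments differ as batches, and no untreated tumor of the second has a usable label, so batch and treatment cannot be told apart.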

How the results depend on the processing

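Among 620 values of the members under alternatives other than leaving out a tumor, 584 kept their direction and side of the threshold, 20 lost and 8 gained a call, and 8 changed sign without being called in either setting. Without the 2-fold threshold, the members called numbered 7 in combination against untreated, 3 in anti-LTβR against untreated, 1 in combination against anti-LTβR, 7 in combination against ADU-S100 and 2 in anti-LTβR against ADU-S100. Of all genes tested, 19.6% were higher and 23.6% lower in the first of these, and 7.21% and 8.10% in the second. The shares were 11.3% and 15.3% in the third, 20.2% and 26.0% in the fourth and 3.38% and 3.04% in the fifth. Differentially expressed genes numbered 1034, 173, 0, 357, 1038 and 100 in combination against untreated, anti-LTβR against untreated, ADU-S100 against untreated, combination against anti-LTβR, combination against ADU-S100 and anti-LTβR against ADU-S100. With no filter on low counts, they were 1638, 330 and 1590 in combination against untreated, anti-LTβR against untreated and combination against ADU-S100, and with at least 10 in every library 649, 96 and 627, and 60 in anti-LTβR against ADU-S100. DESeq2 gave 170 in the last. ADU-S100 against untreated gave 6 in the libraries above 14000000 reads and 1 each in the replicate block, the joint fit, edgeR with RLE, edgeR with TMM and DESeq2. The libraries above 14000000 reads gave 171 genes in combination against anti-LTβR, 1 member in combination against ADU-S100, and 1 member and 1568 genes with an interaction, against 3 and 3240.

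Leaving out 1 tumor gave 0 to 2 members in combination against untreated (2 without untreated tumor 3) and 1 to 2 in combination against ADU-S100. It turned the sign of uncalled values, with a range of -0.25 to 0.17 for Ccl9 and -0.0057 to 0.46 for Ccl6 in anti-LTβR against untreated. In ADU-S100 against untreated the ranges were -0.24 to 0.12 for Ccl8, -0.14 to 0.081 for Ccr2, -0.053 to 0.14 for Ccl4 and -0.18 to 0.0070 for Ccl3. They were -0.18 to 0.092 for Ccl3 in combination against anti-LTβR and -0.0063 to 0.16 for Ccl2 in combination against ADU-S100. Ccl6 in anti-LTβR against untreated was -0.043 by edgeR with RLE, -0.049 with TMM and -0.044 by DESeq2. In the libraries above 14000000 reads, Ccl8 in ADU-S100 against untreated was 0.027, Ccl12 in combination against anti-LTβR -0.017, Ccl7 in combination against ADU-S100 -0.034, and the interactions of Ccl3 and Ccl4 -0.13 and -0.075. The cause of these changes was not tested.

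Tumors with the same number shared only that number. Over the 6 comparisons the mean correlation of same-numbered tumors ran from -0.086 to 0.19, with a lowest single value of -0.55, and at most 6 of 8 pairs were over 0.1 (ADU-S100 against untreated). With the replicate block Ccl2 in combination against untreated (limma adjusted p = 0.065) and Ccl4 in combination against ADU-S100 (0.074) lost the call and Ccl9 in combination against anti-LTβR (0.028) gained it.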
